A study of Homo sapiens with 4 samples.

Results

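Genes for the nuclear pore and for the receptors that carry cargo through it were compared in Jurkat cells carrying either of 2 short hairpin RNAs, a scramble control (sh-Scb) or one directed at SOX4 (sh-SOX4). The members were the protein-coding genes whose symbol begins with NUP and a digit, KPNA, KPNB, IPO or XPO, together with TNPO1, TNPO2, TNPO3, CSE1L, RAN, RANBP1, RANBP2, RANGAP1, RCC1, SEC13, RAE1, TPR, NDC1, POM121 and AAAS. This gave 59 of the 64252 gene IDs in the count table. The rule reads gene names only, but it was set with earlier results of these data known. Jurkat is an established human line of T cell acute lymphoblastic leukemia (T-ALL), and SOX4 is a DNA-binding protein of the SOXC group. Both groups were cultured Jurkat cells given a short hairpin RNA by transfection, with 2 RNA-seq libraries each. Library totals were between 29093287 and 36636219 counts. No hairpin sequence, time of harvest or number of clones was at hand. The labels do not state whether libraries of 1 group stem from separate cultures, so the spread behind every p-value may be purely technical. Levels are given in CPM, counts scaled to a common library size.

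The nuclear pore is a large ring of nucleoporins set in the nuclear envelope. A scaffold of Y-shaped complexes and an inner ring holds flexible nucleoporins, rich in phenylalanine-glycine repeats, that fill the channel, while filaments reach into the cytoplasm and a basket reaches into the nucleus. Proteins too large to diffuse pass with importins or exportins, which bind those repeats. The small GTPase RAN gives transport its direction: it is loaded with GTP by RCC1 on chromatin, and RANGAP1, helped by RANBP1 and RANBP2, triggers GTP hydrolysis in the cytoplasm. Fast-growing cells, leukemic T cells among them, send large numbers of ribosomal subunits out through these pores.

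SOX4 itself, the targeted gene, was read at 271 and 277 CPM in the sh-Scb libraries and 191 and 199 CPM in the sh-SOX4 libraries. Both sh-SOX4 libraries were lower than both sh-Scb libraries, and 71.1% of the control level remained, with a log2 fold change of -0.49 (SE 0.044) and an adjusted p of 1.24e-05 from edgeR's quasi-likelihood test. All 12 T cell and T-ALL markers were measured, with summed levels of 1975 and 1971 CPM in sh-Scb against 2312 and 2332 CPM in sh-SOX4. Of these markers 7 rose and 2 fell. Over all gene IDs tested, 23.2% were called higher and 20.9% lower. Among IDs with a mean of at least 10 CPM the shares were 36.7% and 25.9%. The 4 B cell markers summed to 70.5 and 68.9 CPM in sh-Scb against 14.1 and 13.7 CPM in sh-SOX4, and of these CD79A fell. The 3 fibroblast markers summed to 25.2 and 26.8 CPM against 16.8 and 16.8 CPM, and of these COL1A1 fell. The myeloid, NK, erythroid and epithelial lists each summed to below 3 CPM in every library, none of their genes was called, and 1 myeloid and 2 erythroid markers had 0 counts in all 4 libraries. Counts on the mitochondrial chromosome made up 4.78% ± 0.0376 of the sh-Scb libraries and 6.20% ± 0.0418 of the sh-SOX4 libraries (SD, n = 2). The part of these differences in the results below was not tested.

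Transcripts for nuclear transport were mostly higher in sh-SOX4. Of the 59 members, 57 passed the filter on low counts. EdgeR's quasi-likelihood test was run over all 19897 gene IDs tested, with p-values adjusted by the Benjamini-Hochberg method and a threshold of 0.05. It called 39 of the 57 higher and 5 lower, and 13 did not pass. Of all IDs tested, 44.1% were called, 23.2% higher and 20.9% lower. Members are better expressed than most IDs, and among the 10540 IDs with a mean of at least 10 CPM, 62.7% were called, 36.7% higher and 25.9% lower, against 68.4% and 8.77% of the members. The median log2 fold change of the members was 0.31, beside -0.01 over all IDs tested and 0.069 over IDs with a mean of at least 10 CPM. The groups of 2 did not overlap for 46 members that were higher and 7 that were lower, where 36.3% and 36.6% of all IDs did so. Among the 10540 IDs with a mean of at least 10 CPM, 5004 were higher and 3775 lower without overlap. Most changes were small: 13 members rose and 1 fell by at least 0.5 on the log2 scale, against 12.1% and 13.2% of all IDs. Of the 10540 IDs with a mean of at least 10 CPM, 1712 rose and 1227 fell by that much. Tested against a change of 1.2-fold instead of none, 24 members were higher and 1 was lower, where 13.9% and 13.0% of all IDs were.

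The summed level of the 57 measured members was 9393 and 9434 CPM in the sh-Scb libraries and 11881 and 11795 CPM in the sh-SOX4 libraries. That sum was 1.26 times as high in sh-SOX4. The 4 genes of the Ran cycle had the highest ratio as a sum, from 673 ± 17.7 to 1248 ± 20.2 CPM, followed by the 24 measured receptors, from 4221 ± 35.8 to 5504 ± 80.6 CPM, and the 29 measured pore proteins, from 4519 ± 11.3 to 5086 ± 0.377 CPM (SD, n = 2). In bulk RNA a change in every cell and a change in the share of cells that carry a transcript cannot be told apart. With libraries scaled to their totals alone, the median of all IDs moved from -0.01 to -0.109 and that of the members from 0.31 to 0.21, and 29 members were higher and 7 lower. Of the calls among all IDs, 40.8% were then higher, against 52.5% in the main scaling, and of the members' calls 80.6% against 88.6%. The 10 rises that then no longer passed were SEC13, NUP54, NUP98, NUP214, KPNA1, IPO8, NUP35, NUP205, NUP153 and AAAS, while NUP107 and IPO9 became falls. All changes below are relative to the main scaling. The counts of each class below stand beside 23.2% of all IDs called higher and 20.9% lower. Among IDs with a mean of at least 10 CPM these shares are 36.7% and 25.9%.

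**Figure D1:**
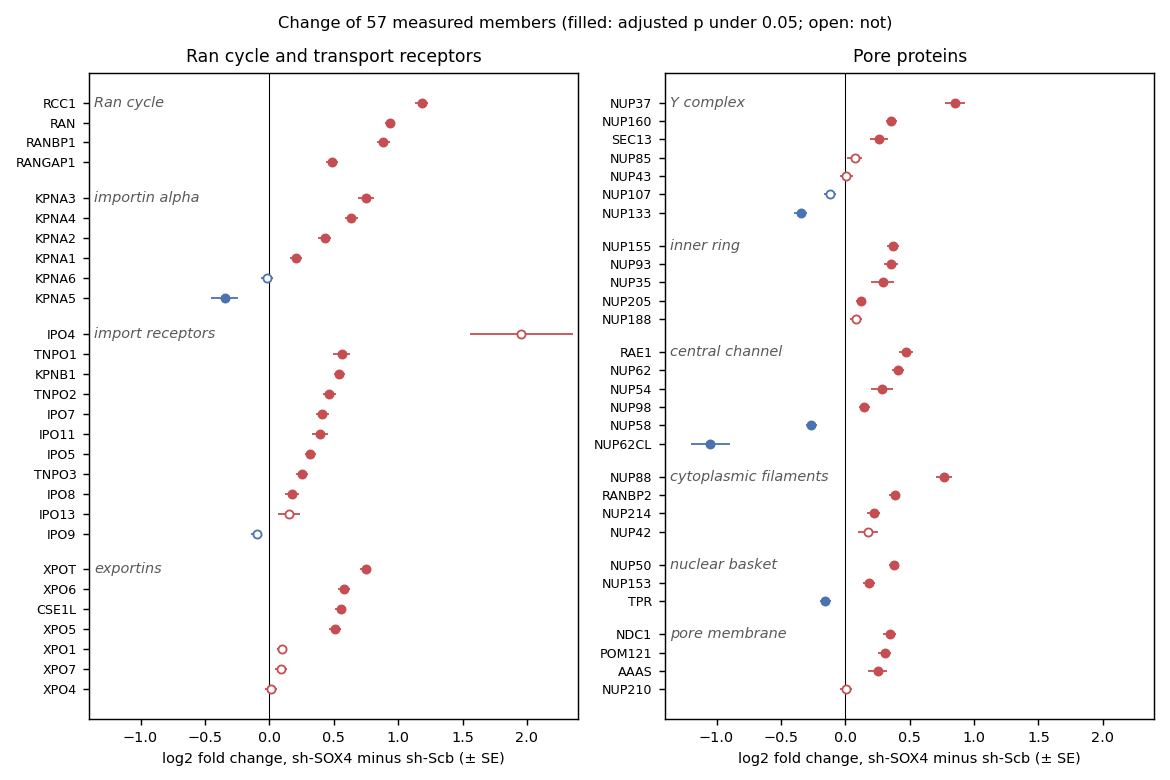
Log2 fold change of each of the 57 measured members, sh-SOX4 minus sh-Scb (x axis), with its SE as a bar, by role in transport (rows, grouped). Filled points passed the test and open points did not, in red above 0 and in blue below; all 4 Ran cycle genes lie at 0.49 or above, and the open point at 1.95 is IPO4.

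All 4 genes of the Ran cycle rose. RAN, the GTPase itself (ENSG00000132341, chromosome 12, 130871879 to 130877678 on GRCh38 in GENCODE 29), was read at 342 and 332 CPM in the sh-Scb libraries and 645 and 648 CPM in the sh-SOX4 libraries. The 2 libraries of each group lay close together and the groups were far apart, with a 1.92-fold rise, a log2 fold change of 0.94 (SE 0.039) and an adjusted p of 9.55e-08 from edgeR's quasi-likelihood test. RAN has 9 annotated pseudogene copies, which together held only 24 to 100 counts a library. RCC1, the exchange factor that loads RAN with GTP on chromatin (ENSG00000180198, chromosome 1, 28505943 to 28539300), was read at 73.5 and 73.5 CPM in the sh-Scb libraries and 162 and 171 CPM in the sh-SOX4 libraries. Its control libraries were nearly equal and the groups did not overlap; it rose 2.27-fold, by 1.18 (SE 0.051) on the log2 scale, with an adjusted p of 1.21e-07. This was the largest called rise among the 57 measured members. Of the exonic bases of RCC1, 6.22% are shared with SNHG3 on the same strand.

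RANBP1, a cytoplasmic partner that helps release RAN from receptors (ENSG00000099901, chromosome 22, 20115938 to 20127357), was read at 152 and 142 CPM in the sh-Scb libraries and 266 and 277 CPM in the sh-SOX4 libraries. It rose by 0.89 (SE 0.05) without overlap between the groups (adjusted p 6.63e-07), and 11.2% of its exonic sequence overlaps TRMT2A on the opposite strand and a snoRNA. RANGAP1, the GTPase-activating protein (ENSG00000100401, chromosome 22, 41245611 to 41286251), was read at 118 and 113 CPM in the sh-Scb libraries and 159.5 and 165 CPM in the sh-SOX4 libraries. Its rise of 0.49 (SE 0.049) was smaller (adjusted p 2.60e-05), and both sh-SOX4 libraries again exceeded both controls. Levels per kb divide by all annotated exonic bases of a gene, not by the length of the transcripts in use. Ranks between genes therefore depend on the annotation. Per kb of exon, RAN was the most abundant of the 4, at 69.9 ± 1.37 CPM per kb in sh-Scb and 134 ± 0.410 in sh-SOX4 (SD, n = 2). RCC1 was the least abundant in sh-Scb, at 18.9 ± 0.000582 CPM per kb (SD, n = 2). In sh-SOX4 the lowest level per kb of the 4 was that of RANGAP1, at 30.3 ± 0.722 CPM per kb (SD, n = 2).

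Promoters were searched because so many members rose together. RefSeq promoter windows on GRCh38.p14, from 250 bases before to 50 bases after each annotated start, were at hand for 52 of the 59 members and for 27305 genes in all. They were searched on both strands for CACGTG, the E-box bound by factors such as MYC and USF, and for AACAAAG and AACAAT, forms of the motif that SOX proteins bind; the last 2 share their first letters but cannot be the same site. CACGTG, which reads the same on both strands, was found in 9 members, IPO4, IPO7, KPNA3, NUP188, NUP50, RAN, RCC1, TNPO2 and XPO1. That is 17.3% of the members searched, against 8.77% of all genes searched. The 27305 genes were not limited to protein-coding genes or to genes measured here, and no such narrower set was searched. The members' windows were richer in G and C, with a median of 63.2% against 58.7% over all genes, and the part of this in the match rate was not tested. CACGTG was held by 6 of the 36 members called higher that were searched and by 3 of the 15 other measured members searched. AACAAAG was found in 4 members (7.69%, against 6.35% of all genes), NUP160, NUP62CL, RCC1 and TNPO1, and AACAAT in 3 (5.77%, against 12.2%), IPO7, NUP93 and RANBP2. A match describes these letters and is no measure of binding. The 4 members with the largest called changes whose window held a motif are shown 5′ to 3′ on the gene's own strand, with motif letters in capitals.
RCC1, chr1:28517976-28518275, plus strand: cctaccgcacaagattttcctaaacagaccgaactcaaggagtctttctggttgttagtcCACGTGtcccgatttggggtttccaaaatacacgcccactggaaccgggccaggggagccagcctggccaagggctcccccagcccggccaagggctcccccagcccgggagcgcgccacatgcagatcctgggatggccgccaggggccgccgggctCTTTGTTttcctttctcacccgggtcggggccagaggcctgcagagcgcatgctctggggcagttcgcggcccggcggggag
NUP62CL, chrX:107206384-107206683, minus strand: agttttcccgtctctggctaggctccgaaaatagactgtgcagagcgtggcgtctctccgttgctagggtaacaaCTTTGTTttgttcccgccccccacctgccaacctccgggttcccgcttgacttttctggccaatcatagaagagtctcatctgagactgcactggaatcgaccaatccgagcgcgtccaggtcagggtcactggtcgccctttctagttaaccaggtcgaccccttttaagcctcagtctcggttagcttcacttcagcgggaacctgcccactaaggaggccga
RAN, chr12:130871816-130872115, plus strand: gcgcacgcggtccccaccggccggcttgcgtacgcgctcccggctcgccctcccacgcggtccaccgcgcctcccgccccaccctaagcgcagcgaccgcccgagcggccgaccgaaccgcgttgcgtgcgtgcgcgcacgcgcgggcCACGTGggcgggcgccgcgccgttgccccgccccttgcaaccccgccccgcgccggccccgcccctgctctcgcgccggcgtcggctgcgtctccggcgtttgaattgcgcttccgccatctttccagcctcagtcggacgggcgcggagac
KPNA3, chr13:49792633-49792932, minus strand: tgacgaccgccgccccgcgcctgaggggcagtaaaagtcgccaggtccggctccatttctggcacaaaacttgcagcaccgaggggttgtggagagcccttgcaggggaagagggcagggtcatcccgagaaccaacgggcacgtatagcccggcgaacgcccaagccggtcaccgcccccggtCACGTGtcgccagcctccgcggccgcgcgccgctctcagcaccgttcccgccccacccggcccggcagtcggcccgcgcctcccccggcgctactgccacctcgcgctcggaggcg
The E-box begins 190 bases before the annotated start in RCC1, 102 in RAN and 66 in KPNA3. RCC1 also holds CTTTGTT, the longer SOX motif read on the other strand, 32 bases before its start, and NUP62CL holds it 175 bases before its start. RCC1 has 2 annotated starts, and the window shown is that of the downstream one, which held the motifs.

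Importin alpha adaptors bind the classical nuclear localization signal and hand the cargo to importin beta. Of 7 adaptor genes 6 were measured; 4 rose, 1 fell and 1 did not pass, and KPNA7 had 0 counts in all 4 libraries, which allows a level of up to 0.0819 to 0.103 CPM a library. KPNA4 (ENSG00000186432, chromosome 3, 160494995 to 160565588) was read at 80.3 and 80.9 CPM in the sh-Scb libraries and 128 and 123 CPM in the sh-SOX4 libraries. The controls agreed closely and the rise was 0.64 (SE 0.05) (adjusted p 5.26e-06, edgeR's quasi-likelihood test). KPNA3, a close relative of KPNA4 whose promoter with an E-box is shown above (ENSG00000102753, chromosome 13, 49699307 to 49792921), was read at 95.7 and 109 CPM in the sh-Scb libraries and 173 and 171 CPM in the sh-SOX4 libraries. It rose by 0.75 (SE 0.063) although the control libraries differed by more than those of sh-SOX4 (adjusted p 1.02e-05).

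KPNA2, the adaptor that is abundant in dividing cells (ENSG00000182481, chromosome 17, 68035519 to 68046842), was read at 317 and 289 CPM in the sh-Scb libraries and 413 and 403 CPM in the sh-SOX4 libraries. All sh-SOX4 values exceeded the controls, with a log2 fold change of 0.43 (SE 0.05) and an adjusted p of 7.24e-05. KPNA1 was read at 128 and 123 CPM in the sh-Scb libraries and 147 and 143 CPM in the sh-SOX4 libraries, a rise of 0.21 (SE 0.048) (adjusted p 0.00547), and 16.3% of its exonic sequence overlaps an antisense transcript. KPNA5 was read at 36.9 and 45.1 CPM in the sh-Scb libraries and 33.2 and 31.1 CPM in the sh-SOX4 libraries. It was the only measured adaptor that fell, without overlap between the groups, by 0.35 (SE 0.10) on the log2 scale (adjusted p 0.0216). That call was lost without sh-Scb replicate 2 (adjusted p 0.145) and without sh-SOX4 replicate 2 (adjusted p 0.0994). KPNA6 was read at 124 and 127 CPM in the sh-Scb libraries and 125 and 123 CPM in the sh-SOX4 libraries, a log2 fold change of -0.017 with a 95% interval of -0.12 to 0.089. Scaled per kb of exon, KPNA2 held 59.1% ± 2.50 of the summed level of the 6 measured adaptors in sh-Scb and 59.5% ± 0.0478 in sh-SOX4, so its share moved by less than the spread of the controls. The share of KPNA3 went from 14.1% ± 1.64 to 17.6% ± 0.129 and that of KPNA6 from 10.3% ± 0.389 to 7.60% ± 0.0244 (SD, n = 2). The size of each share depends on the annotated exonic length of every adaptor.

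**Figure D2:**
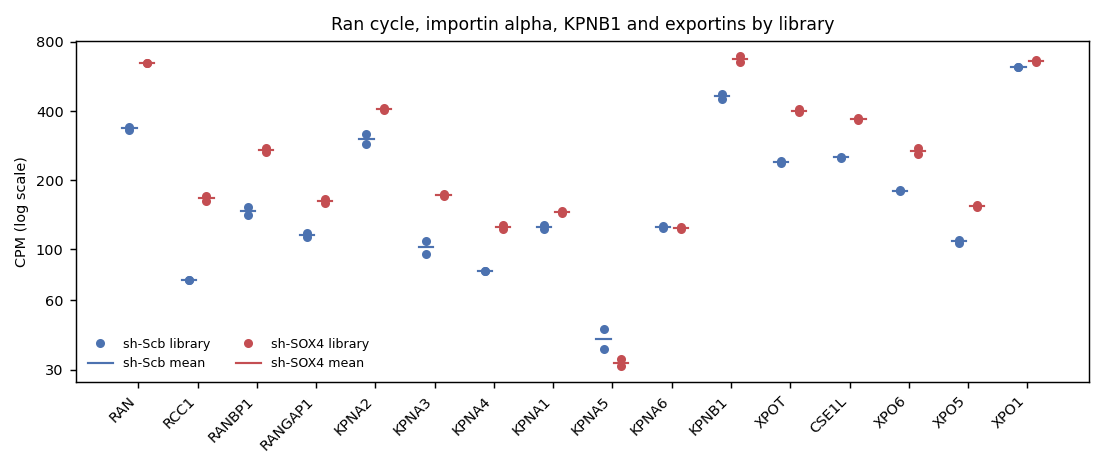
Level in CPM (log axis) of the Ran cycle genes, the 6 measured importin alpha adaptors, KPNB1 and 5 exportins (x axis); points are libraries and bars are group means. RAN, RCC1 and RANBP1 show the widest gaps between the groups among these genes, while KPNA6 overlaps and XPO1 shows only a narrow gap.

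Receptors of the importin beta family carry cargo directly or through an adaptor. All 11 were measured, of which 8 rose, none fell and 3 did not pass. KPNB1, importin beta itself (ENSG00000108424, chromosome 17, 47649476 to 47685505), was read at 472 and 453 CPM in the sh-Scb libraries and 693 and 657 CPM in the sh-SOX4 libraries. The lowest sh-SOX4 library was well above the highest control, a rise of 0.54 (SE 0.043) (adjusted p 5.59e-06, edgeR's quasi-likelihood test). TNPO2, a transportin that imports RNA-binding proteins, was read at 83.6 and 84.4 CPM in the sh-Scb libraries and 116 and 116 CPM in the sh-SOX4 libraries. It rose by 0.47 (SE 0.049) (adjusted p 3.46e-05), with libraries of a group nearly equal. TNPO1, its close relative (ENSG00000083312, chromosome 5, 72816312 to 72916733), was read at 230.0 and 266 CPM in the sh-Scb libraries and 372 and 359 CPM in the sh-SOX4 libraries. The control libraries differed more than for most members, yet the groups did not overlap and the rise was 0.56 (SE 0.066) (adjusted p 0.000201).

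IPO7 and IPO5, which are known to import ribosomal proteins and histones, both rose. IPO7 was read at 187 and 201 CPM in the sh-Scb libraries and 261 and 256 CPM in the sh-SOX4 libraries, a change of 0.41 (SE 0.048) (adjusted p 7.26e-05). IPO5 was read at 244 and 239 CPM in the sh-Scb libraries and 307 and 296 CPM in the sh-SOX4 libraries, a change of 0.32 (SE 0.043) (adjusted p 0.000191). Each had both sh-SOX4 libraries above both controls. IPO11, TNPO3 and IPO8 rose less, by 0.40, 0.25 and 0.18 on the log2 scale; TNPO3 is the importer of splicing factors rich in serine and arginine, and 22.6% of the exonic bases of IPO11 are shared with other genes. IPO8 (adjusted p 0.0223) no longer passed without sh-Scb replicate 1 (adjusted p 0.0914), sh-SOX4 replicate 1 (0.0538) or sh-SOX4 replicate 2 (0.125), nor with DESeq2 (0.0597) or with only IDs of at least 10 CPM in 2 libraries (0.0971). IPO9 had a log2 fold change of -0.098 with a 95% interval of -0.20 to -0.001, and IPO13, which works in both directions, one of 0.15 (-0.04 to 0.35); neither passed. With only IDs of at least 10 CPM in 2 libraries IPO9 was called lower, at -0.162 (adjusted p 0.00682).

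IPO4, an importer of histones and ribosomal proteins (ENSG00000196497, chromosome 14, 24180219 to 24188964), had the largest fold of all measured members but did not pass. It was read at 13.2 and 24.7 CPM in the sh-Scb libraries and 75.3 and 70.5 CPM in the sh-SOX4 libraries. The control libraries lay apart from each other but below both sh-SOX4 libraries, and the log2 fold change was 1.95 (SE 0.40) with an adjusted p of 0.0561. The change was 1.56 when sh-Scb replicate 1 was left out and 2.46 when sh-Scb replicate 2 was. Dropping a sh-SOX4 library instead gave 1.908 (replicate 1 dropped) or 1.998 (replicate 2 dropped). A fit with 1 control holds no spread between controls, so it cannot test the change against that spread. IPO4 passed with DESeq2 (adjusted p 4.87e-05) and limma-voom (adjusted p 0.015). IPO4 did not pass with the replicate block (0.109), unfiltered (0.1), against 1.2-fold (0.085) or with library totals (0.0604). Nor did IPO4 pass with size factors from median ratios (0.0558) or the floor of 10 CPM in 2 libraries (0.0508). Of its 5007 exonic bases, 70.1% overlap other annotated genes, 3470 of them in a readthrough gene on the same strand, ENSG00000259522, that joins exons of TM9SF1 to those of IPO4. That gene was counted 697 and 179 times in sh-Scb against 621 and 635 times in sh-SOX4; the control library with fewer IPO4 counts, 498 against 745, was the one with more readthrough counts. Counted together, a choice made after seeing the data, the pair stood at 31.6 and 30.7 CPM in sh-Scb against 94.9 and 91.8 CPM in sh-SOX4. The 2 controls then agreed and the groups were far apart. The log2 fold change of the pair was 1.58 (SE 0.061), with an adjusted p of 6.04e-08 from edgeR's quasi-likelihood test. The readthrough gene also shares 703 exonic bases with TM9SF1. Part of the pair's counts could thus stem from TM9SF1, which was not tested.

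**Figure D3:**
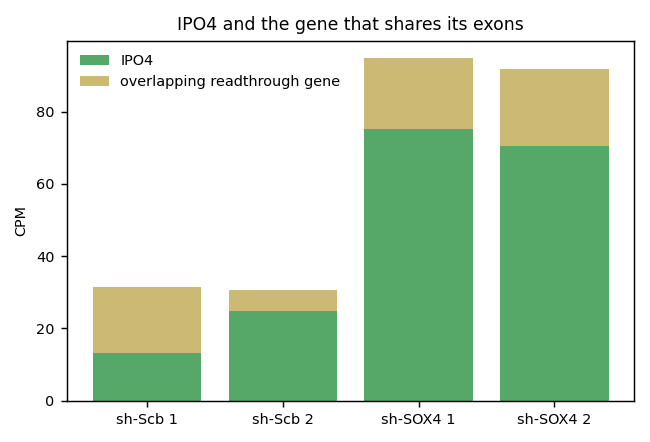
Level in CPM (y axis, from 0) of IPO4 and of the readthrough gene that shares 3470 of its exonic bases, stacked, in each of the 4 libraries (x axis). The split between the 2 genes differs between the control libraries, while their sum is near 31 CPM in both and above 91 CPM in both sh-SOX4 libraries.

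Exportins bind cargo together with RAN and GTP in the nucleus. Of 7 measured, 4 rose, each by at least 0.5 on the log2 scale, and 3 did not pass. XPOT, the exporter of tRNA (ENSG00000184575, chromosome 12, 64404350 to 64451127), was read at 237 and 242 CPM in the sh-Scb libraries and 409 and 394 CPM in the sh-SOX4 libraries. Its rise of 0.75 (SE 0.042), or 1.68-fold, was the largest of the class (adjusted p 6.17e-07, edgeR's quasi-likelihood test). CSE1L, which returns importin alpha to the cytoplasm (ENSG00000124207, chromosome 20, 49046246 to 49096960), was read at 253 and 249.7 CPM in the sh-Scb libraries and 372 and 366 CPM in the sh-SOX4 libraries. The rise of 0.55 (SE 0.04) (adjusted p 3.10e-06) came without overlap between the groups.

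XPO6, the exporter of actin (ENSG00000169180, chromosome 16, 28097979 to 28211920), was read at 180.5 and 179.7 CPM in the sh-Scb libraries and 261 and 276 CPM in the sh-SOX4 libraries. XPO5, the exporter of microRNA precursors (ENSG00000124571, chromosome 6, 43522330 to 43576075), was read at 107 and 110.3 CPM in the sh-Scb libraries and 156 and 153 CPM in the sh-SOX4 libraries. They rose by 0.58 (SE 0.045) and 0.51 (SE 0.048) on the log2 scale (adjusted p 5.23e-06 and 1.63e-05), and in both genes the lower sh-SOX4 library exceeded the higher control. XPO1, the general exporter of proteins with a leucine-rich signal and of ribosomal subunits, was read at 619.9 and 619 CPM in the sh-Scb libraries and 669 and 656 CPM in the sh-SOX4 libraries. Its log2 fold change of 0.097 with a 95% interval of 0.014 to 0.18 missed the threshold (adjusted p 0.058), though it passed with limma-voom (adjusted p 0.0301). XPO7 had a log2 fold change of 0.09 (-0.012 to 0.19) and XPO4, an exporter of a translation factor, one of 0.014 (-0.091 to 0.12). These 3 intervals all lie below the changes of the 4 exportins that rose, but the differences between exportins were not tested.

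The Y complex builds the outer rings of the pore scaffold. Of its 7 genes listed here, 3 rose, 1 fell and 3 did not pass. NUP37, a peripheral subunit (ENSG00000075188, chromosome 12, 102073103 to 102120124), was read at 49.6 and 43.5 CPM in the sh-Scb libraries and 79.7 and 88.7 CPM in the sh-SOX4 libraries. It rose by 0.85 (SE 0.08) (adjusted p 2.20e-05, edgeR's quasi-likelihood test), the largest called rise among the pore proteins, with no overlap between the groups. NUP160, a core subunit, was read at 163 and 169 CPM in the sh-Scb libraries and 214 and 212 CPM in the sh-SOX4 libraries. Its rise was 0.36 (SE 0.045) (adjusted p 0.000116). NUP133, at the far end of the stem, went the other way and was read at 121 and 114 CPM in the sh-Scb libraries and 91.2 and 93.9 CPM in the sh-SOX4 libraries. It fell by 0.35 (SE 0.052) on the log2 scale (adjusted p 0.000387), and both sh-SOX4 libraries were below both controls.

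SEC13, which also coats vesicles of the secretory pathway, was read at 112 and 101 CPM in the sh-Scb libraries and 121 and 135 CPM in the sh-SOX4 libraries. Its rise of 0.26 (SE 0.069) (adjusted p 0.012) no longer passed without sh-SOX4 replicate 2 (adjusted p 0.0864). NUP107 had a log2 fold change of -0.12 with a 95% interval of -0.22 to -0.017 and an adjusted p of 0.0593. It was called lower (adjusted p 0.00461) when only IDs with at least 10 CPM in 2 libraries were kept. NUP85 and NUP43 had log2 fold changes of 0.073 and 0.0081, with intervals of -0.06 to 0.21 and -0.11 to 0.12. Per kb of exon, the 7 subunits lay between 11.8 ± 0.412 CPM per kb for NUP85 and 27.2 ± 0.327 for NUP43 in sh-Scb, and between 12.4 ± 0.190 and 27.4 ± 1.29 for the same genes in sh-SOX4 (SD, n = 2). NUP37 moved within that range from 13.3 ± 1.24 to 24.1 ± 1.82 CPM per kb and NUP133 from 19.4 ± 0.754 to 15.2 ± 0.307 (SD, n = 2).

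The inner ring lines the pore membrane and anchors the channel proteins. Of 5 genes 4 rose and 1 did not pass. NUP155, which binds the membrane, was read at 156 and 150.4 CPM in the sh-Scb libraries and 197 and 199 CPM in the sh-SOX4 libraries. It rose by 0.37 (SE 0.045) (adjusted p 0.000104, edgeR's quasi-likelihood test), with libraries of each group close together. NUP93, the linker that recruits the channel trimer, was read at 92.4 and 94.6 CPM in the sh-Scb libraries and 123 and 116 CPM in the sh-SOX4 libraries, a change of 0.35 (SE 0.052) (adjusted p 0.000368). NUP35 was read at 24.7 and 24.1 CPM in the sh-Scb libraries and 31.1 and 28.7 CPM in the sh-SOX4 libraries, a change of 0.29 (SE 0.091) (adjusted p 0.0263). NUP205 was read at 234 and 238 CPM in the sh-Scb libraries and 254 and 259 CPM in the sh-SOX4 libraries, a change of 0.12 (SE 0.042) (adjusted p 0.0372). In all 4 the groups did not overlap.

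The 2 smallest rises of the inner ring did not pass in every subset of the libraries. NUP35 lost its call without sh-Scb replicate 2 (adjusted p 0.0684) or sh-SOX4 replicate 1 (0.138). NUP205 lost it without sh-Scb replicate 1 (0.0871), sh-SOX4 replicate 1 (0.0902) or sh-SOX4 replicate 2 (0.231), with no filter (0.0744) and with the floor of 10 CPM in 2 libraries, where its log2 fold change was 0.0592 (adjusted p 0.231). NUP188, a large scaffold protein related to NUP205, had a log2 fold change of 0.083 (-0.021 to 0.19).

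The proteins of the central channel carry the repeats through which receptors pass. The class listed here also holds RAE1, a partner of NUP98, and NUP62CL, and was not limited to proteins with repeats. All 6 of its genes were called, 4 higher and 2 lower. Of all IDs tested 23.2% were called higher and 20.9% lower, and of those with a mean of at least 10 CPM 36.7% and 25.9%. RAE1, which binds NUP98 and takes part in mRNA export, was read at 90.5 and 86.0 CPM in the sh-Scb libraries and 126 and 118 CPM in the sh-SOX4 libraries. It rose by 0.47 (SE 0.055) (adjusted p 7.42e-05, edgeR's quasi-likelihood test). NUP62, the hub of the channel trimer, was read at 175 and 179 CPM in the sh-Scb libraries and 226 and 242 CPM in the sh-SOX4 libraries. Its rise of 0.41 (SE 0.048) (adjusted p 7.86e-05) came with no overlap between the groups, and 21.1% of its exonic sequence overlaps neighbours, among them ATF5 on the opposite strand. NUP58, a trimer partner of NUP62, moved the other way, at 341 and 352 CPM in sh-Scb against 293 and 284 CPM in sh-SOX4. It fell by 0.27 (SE 0.042) on the log2 scale (adjusted p 0.00059). NUP54, the third trimer subunit, rose by 0.29 (SE 0.082) (adjusted p 0.0178), a call lost without sh-SOX4 replicate 1 (adjusted p 0.152).

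NUP98 rose by 0.15 (SE 0.044) (adjusted p 0.0198), and no longer passed without sh-Scb replicate 2 (0.0938), sh-SOX4 replicate 1 (0.0595) or sh-SOX4 replicate 2 (0.123), nor with the floor of 10 CPM in 2 libraries (0.104). NUP62CL, named for its likeness to the C-terminal part of NUP62 (ENSG00000198088, chromosome X, 107123427 to 107206433), was read at 12.9 and 13.4 CPM in the sh-Scb libraries and 5.58 and 7.12 CPM in the sh-SOX4 libraries. It was the least abundant of the 57 measured members in CPM and the 1 with the largest fall, to 0.484 times the control level, a log2 fold change of -1.05 (SE 0.16) (adjusted p 0.000361). Within the trimer the order of levels per kb of exon changed: NUP58 at 33.2 ± 0.741 exceeded NUP62 at 29.3 ± 0.453 CPM per kb in sh-Scb, and NUP62 at 38.9 ± 1.86 exceeded NUP58 at 27.7 ± 0.644 in sh-SOX4 (SD, n = 2). NUP54 was lowest of the 3 in both groups, at 10.9 ± 0.532 and 13.2 ± 1.29 CPM per kb (SD, n = 2). The order of the 3 rests on annotated exonic lengths, which are 10422 bases for NUP58 and 6020 for NUP62. Of the NUP62 bases, 21.1% overlap other genes.

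On the cytoplasmic face, 3 of 4 genes rose and 1 did not pass. NUP88 (ENSG00000108559, chromosome 17, 5360963 to 5420160), which binds NUP214, was read at 52.2 and 53.2 CPM in the sh-Scb libraries and 93.2 and 86.1 CPM in the sh-SOX4 libraries. Its rise of 0.77 (SE 0.06) (adjusted p 5.24e-06, edgeR's quasi-likelihood test) was second only to that of NUP37 among the measured pore proteins, and 18.7% of its exonic sequence overlaps RPAIN and RABEP1 on the opposite strand. RANBP2, the giant filament protein that binds RAN and RANGAP1, was read at 268 and 266 CPM in the sh-Scb libraries and 353 and 343 CPM in the sh-SOX4 libraries. It rose by 0.38 (SE 0.041) (adjusted p 4.20e-05). Near-identical copies of part of RANBP2, the RGPD genes, held counts equal to 52.2% and 53.9% of those of RANBP2 in sh-Scb against 43.8% and 42.7% in sh-SOX4, so its level is uncertain. NUP214 was read at 84.1 and 85.5 CPM in the sh-Scb libraries and 100.2 and 97.8 CPM in the sh-SOX4 libraries, a change of 0.22 (SE 0.05) (adjusted p 0.00503). NUP42 had a log2 fold change of 0.17 (-0.0031 to 0.35).

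In the nuclear basket, NUP50 and NUP153 rose and TPR fell, where 36.7% of IDs with a mean of at least 10 CPM were called higher and 25.9% lower. NUP50, which promotes cargo release from importin alpha, was read at 348 and 358 CPM in the sh-Scb libraries and 452 and 464 CPM in the sh-SOX4 libraries. Its rise was 0.38 (SE 0.041) (adjusted p 4.36e-05, edgeR's quasi-likelihood test). NUP153, which tethers the basket, was read at 209 and 211 CPM in the sh-Scb libraries and 245 and 232 CPM in the sh-SOX4 libraries, a rise of 0.18 (SE 0.046) (adjusted p 0.00805) that no longer passed without sh-SOX4 replicate 1 (adjusted p 0.0799). TPR, the long coiled-coil protein that forms the basket's struts, was read at 355 and 355 CPM in the sh-Scb libraries and 327 and 311 CPM in the sh-SOX4 libraries. The controls were nearly equal and both sh-SOX4 libraries lay below them, a fall of 0.15 (SE 0.042) on the log2 scale (adjusted p 0.0141), which no longer passed without sh-SOX4 replicate 2 (adjusted p 0.158).

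Of the membrane proteins and their anchor, 3 of 4 measured genes rose, and NUP210L had 8 and 1 counts in sh-Scb against 4 and 5 in sh-SOX4, too few to test. NDC1, a membrane nucleoporin, was read at 170.3 and 176 CPM in the sh-Scb libraries and 228 and 211 CPM in the sh-SOX4 libraries, a change of 0.34 (SE 0.05) (adjusted p 0.000312, edgeR's quasi-likelihood test). POM121 was read at 138 and 142 CPM in the sh-Scb libraries and 169 and 178 CPM in the sh-SOX4 libraries, a change of 0.31 (SE 0.048) (adjusted p 0.000538). POM121C, its near-identical copy, could exchange reads with it, and 18.9% of the exonic bases of POM121 lie in other genes, nearly all in a pseudogene on the opposite strand. AAAS, the protein anchored by NDC1, was read at 58.6 and 54.7 CPM in the sh-Scb libraries and 62.9 and 72.1 CPM in the sh-SOX4 libraries. Its change of 0.25 (SE 0.076) (adjusted p 0.0228) no longer passed without sh-Scb replicate 2 (0.0634) or sh-SOX4 replicate 2 (0.206). NUP210, the membrane ring protein, was read at 414 and 432 CPM in the sh-Scb libraries and 408 and 440.2 CPM in the sh-SOX4 libraries. Its libraries overlapped between the groups, and the log2 fold change was 0.0035 with a 95% interval of -0.10 to 0.11.

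**Figure D4:**
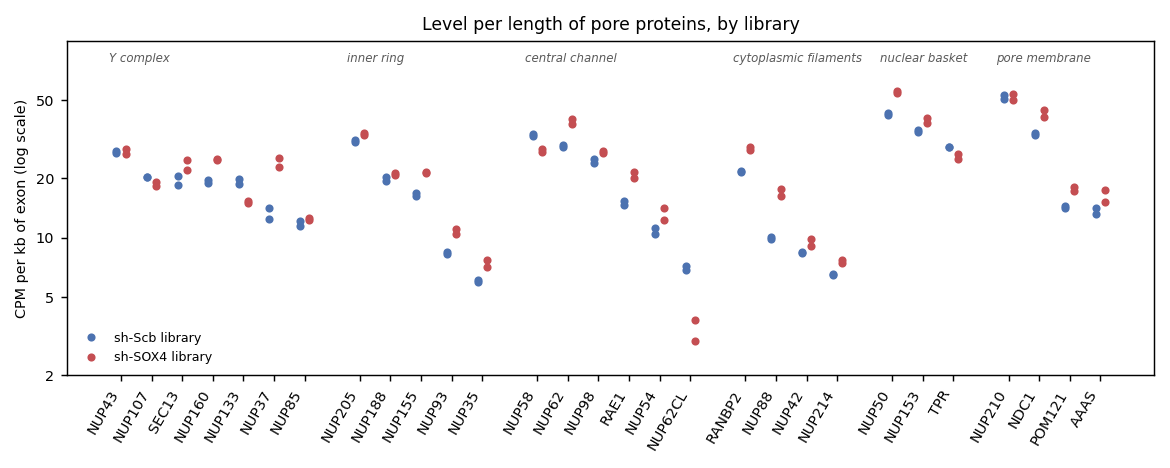
Level per kb of exon (y axis, CPM per kb, log scale) of the 29 measured pore proteins by substructure (x axis); each point is a library. NUP37 and NUP88 show clear gaps upward in sh-SOX4, NUP133, NUP58 and NUP62CL lie lower, and NUP210 overlaps.

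Genes that work beside the members were read from 4 further lists, whose counts stand beside 23.2% of all IDs called higher and 20.9% lower, or 36.7% and 25.9% of IDs with a mean of at least 10 CPM. Among nucleoporins that the symbol rule leaves out, 3 of 4 rose and GLE1 did not pass. AHCTF1, which seeds pore assembly on chromatin, went from 167 ± 1.63 to 224 ± 0.912 CPM (SD, n = 2), SEH1L of the Y complex from 110.1 ± 5.45 to 152 ± 2.78 CPM (SD, n = 2), and POM121C from 115 ± 11.6 to 141 ± 0.781 CPM (SD, n = 2). Of 13 measured transport cofactors 10 rose and none fell, with a median log2 fold change of 0.33. NUTF2, the carrier that brings RAN with GDP back into the nucleus, rose from 79.1 ± 1.06 to 144 ± 3.10 CPM (SD, n = 2), by 0.86 (SE 0.049) (adjusted p 6.64e-07, edgeR's quasi-likelihood test). PHAX, the adaptor for snRNA export, rose by 0.63 (SE 0.067) and RANBP3, a cofactor of XPO1, by 0.51 (SE 0.058) on the log2 scale (adjusted p 3.81e-05 and 6.05e-05).

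Of 24 genes of mRNA export, which passes the pore without RAN, 14 rose and 3 fell, with a median of 0.34. NCBP2, a cap-binding subunit, rose from 114 ± 0.212 to 181 ± 4.97 CPM (SD, n = 2), the export adaptor ALYREF from 109.8 ± 2.47 to 170.1 ± 0.533 CPM (SD, n = 2) and the helicase DDX39A from 111 ± 2.38 to 189.9 ± 14.3 CPM (SD, n = 2). Those that fell were ZC3H11A, POLDIP3 and FYTTD1, named because they were few and chosen after their values were seen; 93.6% of the exonic bases of ZC3H11A lie in ZBED6. In the nuclear lamina and envelope list 5 of 20 genes were higher and 6 lower, with a median of -0.074. These shares are 25% and 30%, against 23.2% and 20.9% of all IDs. Among IDs with a mean of at least 10 CPM, the shares were 36.7% higher and 25.9% lower. NEMP1, an inner nuclear membrane protein, fell from 298 ± 0.765 to 143 ± 5.76 CPM (SD, n = 2). SUN1, which links the lamina to the cytoskeleton, fell from 155 ± 3.12 to 89.1 ± 1.74 CPM (SD, n = 2), and 15.6% of its exonic bases are shared with GET4 on the same strand. TOR1A, an ATPase of the envelope lumen, rose from 86.5 ± 1.41 to 136 ± 3.19 CPM (SD, n = 2). With edgeR's quasi-likelihood test, the adjusted p of the 3 risers named from the mRNA export list and of these 3 envelope genes ran from 1.27e-07 to 4.12e-06. Whether the lists differ from each other was not tested.

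**Figure D5:**
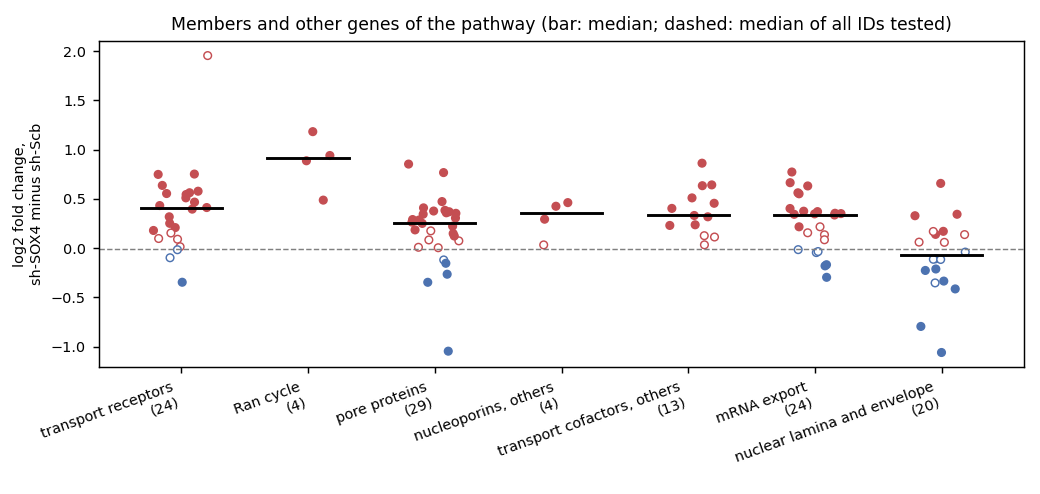
Log2 fold change, sh-SOX4 minus sh-Scb (y axis), of each measured gene of the members' 3 main groups and of 4 further lists (x axis, number of genes in brackets); filled points passed the test (red above 0, blue below), open points did not, bars are medians and the dashed line is the median of all IDs tested. The medians are 0.40 for receptors, 0.91 for the Ran cycle and 0.25 for pore proteins, and only the nuclear lamina and envelope list has its median below 0 among those drawn.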

How the data were processed

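Total RNA was isolated with TRIzol and sequenced from TruSeq libraries on an Illumina NovaSeq instrument, per the labels' protocols and the series' design text. The deposited table holds raw, whole-number counts for each Ensembl gene ID and library. The submitters' processing notes list HISAT2 2.2.0, StringTie and hg38. Neither the annotation release nor strand handling is stated there, so a gene and its antisense partner cannot be separated. Columns headed NC were used as sh-Scb, since the only others name SOX4.

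GENCODE 29 on GRCh38 supplied gene types, coordinates and exon overlaps for 56591 of the 64252 IDs. Symbols came from a list of gene IDs, or from GENCODE 29 where that list had none. IDs with a symbol held 98.2% of counts. In edgeR 4.0.16 (R 4.3.3), IDs were kept by filterByExpr (minimum count 10, minimum total 15) and library sizes scaled by TMM, and the robust quasi-likelihood model was fitted by group, leaving 2 residual degrees of freedom; the common biological coefficient of variation was 0.101. CPM use TMM-scaled library sizes, except sums over cell type markers, which use library totals. The SE is the log2 fold change divided by the square root of F, and 95% intervals come from the model. The floor of 3 counts (0.0819 to 0.103 CPM) covers counting error only. Replicates differed by more than sampling noise (median chi-square per gene 1.70 and 1.59, against 0.455) and were kept as separate samples.

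Members and gene lists were chosen with earlier results of these data known. Values in every library are given for SOX4, for the 4 called members of each class with the smallest adjusted p, and for members changed by at least 0.5 on the log2 scale; of the other lists the 3 called genes with the smallest adjusted p are named. The other settings were DESeq2 size factors, library totals, all IDs unfiltered, a floor of 10 CPM in 2 libraries, the replicate number as a block, leaving out each library, DESeq2 1.42.0, limma-voom (limma 3.58.1) and a test against 1.2-fold; counting IPO4 with its readthrough gene was added after seeing the data. The fit was also run on simulated counts with known changes, drawn with the means and dispersion of these data. The outcome of that run is not given here.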

Additional observations from a re-analysis of the deposited data

How the results depend on the processing

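The test against 1.2-fold called 24 members higher, 1 lower and 5348 IDs in the whole table, against 39, 5 and 8775 in the main test. Leaving out each library in turn left 33 to 38 members higher and 3 to 5 lower, and 7467 to 8294 IDs over the table. With size factors from median ratios all 57 members kept their direction and their side of the threshold. The fit with a replicate block called 38 members higher, 5 lower and 8378 IDs; NUP205 was the 1 member that lost its call (adjusted p 0.0706). Differences between replicates 1 and 2 correlated at -0.0453 between the groups across the better expressed IDs. This shows no common replicate effect but cannot decide whether the numbers pair the libraries, which the labels do not state. With library totals the members that changed sign, none of them called in the main test or there, were NUP85 (-0.0255), NUP43 (-0.0909), XPO1 (-0.00184), XPO7 (-0.00924), XPO4 (-0.0852), NUP188 (-0.0162) and NUP210 (-0.0955). With at least 10 CPM in 2 libraries 36 members were higher and 7 lower, and those that changed sign were NUP43 (-0.0552), XPO4 (-0.0496) and NUP210 (-0.0599). NUP43 changed sign without sh-Scb replicate 1 (-0.00137) and sh-SOX4 replicate 1 (-0.0358), and NUP210 without sh-Scb replicate 1 (-0.0237) and sh-SOX4 replicate 2 (-0.0545); without each library in turn they ranged up to 0.0532 and 0.0627. The cause of these shifts was not tested. Each arm has 2 libraries; where 1 was left out, the lone library was assumed to vary like the other group.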

Other observations

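The 7 measured RGPD genes, partial copies of RANBP2 on chromosome 2, did not move together. RGPD1 was read at 31.9 and 33.5 CPM in sh-Scb against 44.6 and 43.3 CPM in sh-SOX4 and RGPD2 at 34.5 and 37.6 CPM in sh-Scb against 49.6 and 45.8 CPM in sh-SOX4, and both rose by edgeR's quasi-likelihood test, by 0.43 (SE 0.077) and 0.41 (SE 0.081) on the log2 scale (adjusted p 0.0013 and 0.00242). RGPD5 was read at 25.2 and 24.6 CPM in sh-Scb against 19.1 and 19.3 CPM in sh-SOX4 and RGPD6 at 23.8 and 25.0 CPM in sh-Scb against 18.8 and 17.3 CPM in sh-SOX4, and both fell, with log2 fold changes of -0.37 (SE 0.094) and -0.43 (SE 0.10) (adjusted p 0.00898 and 0.00586). RGPD3, RGPD4 and RGPD8 did not pass. Reads of such copies could be assigned to any of them, which was not tested.

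Of 9 divergent or antisense transcripts named after members, 5 had enough counts to test and 1 was called, NUP153-AS1, with 53 and 30 counts in sh-Scb against 97 and 54 in sh-SOX4 (log2 fold change 1.01 (SE 0.34), edgeR adjusted p 0.0361). It shares 558 bases with NUP153 exons on the opposite strand. TM9SF1, the upstream neighbour joined to IPO4 by the readthrough gene, was read at 27.5 and 38.1 CPM in sh-Scb against 28.8 and 31.5 CPM in sh-SOX4 and did not pass (adjusted p 0.574), with an interval of its log2 change of -0.48 to 0.25.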
